A study of Mus musculus with 12 samples.

Results

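The comparison of the groups labelled NY and DZ rests on 6 of the 12 small RNA libraries of the series, 3 per group, all made from extracellular vesicles that mesenchymal stem cells of mouse bone marrow released. The libraries were chosen by their titles, which give a group name and a replicate letter A, B or C. Both groups carry the same labels otherwise: bone marrow mesenchymal stem cells of C57BL/6 mice kept under specific-pathogen-free conditions, with antigen intervention given as the treatment of every library, DZ included. The design text names 3 preparations used in a study of hydatid antigen, ESPs, HCF and pLL, each applied at 2 µg/ml for 48 h. No label says what NY or DZ stands for or which group, if any, was left unstimulated, so the names are used as given and DZ serves only as the reference. The labels name no culture or animal behind a replicate. The p-values therefore describe only scatter between libraries, which may be technical, and they draw on all 12 libraries, since the groups aFM and PLL entered the same fit.

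Mesenchymal stem cells are stromal progenitors of bone, fat and cartilage cells, and they release membrane vesicles that carry short regulatory RNAs. A miRNA pairs with messenger RNAs mainly through its seed, bases 2 to 8 from the 5′ end, and lowers their translation and stability. miRNAs that share a seed are expected to share many targets, and many miRNAs are made in only some cell types, so a vesicle's miRNA content carries a trace of the cells it came from. Hydatid disease is caused by the larval cyst of the tapeworm Echinococcus.

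The 6 libraries held 85772 to 177849 counts each, of which 17607 to 35114 fell on annotated mouse miRNAs. Levels are given as CPM, the counts of a miRNA per 1000000 counts of the tested miRNAs after TMM scaling, so every difference below is relative to the other miRNAs. In these units 1 count was worth 31.5 to 61.9 CPM, and a count of 0 in a library allows a level of up to 94.6 to 186 CPM, by counting error alone. Of 1978 annotated entries 406 had a count in these 6 libraries, and 132 were abundant enough to be tested.

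The sequences of the miRNAs on which the comparison turns are shown first, because they differ in seed and show which of them are relatives. They are RefSeq mature sequences on GRCm38.p6, written 5′ to 3′ with the seed in capitals. RefSeq entries were found for 109 of the 132 tested miRNAs.
miR-9-5p: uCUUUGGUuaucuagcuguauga
miR-206-3p: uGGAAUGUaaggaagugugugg
miR-378c: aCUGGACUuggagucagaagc
miR-222-3p: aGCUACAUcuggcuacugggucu
miR-221-3p: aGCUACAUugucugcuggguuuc
miR-125a-5p: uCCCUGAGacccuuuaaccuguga
miR-125b-5p: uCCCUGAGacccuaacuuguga
miR-409-3p: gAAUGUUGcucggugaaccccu
let-7b-5p: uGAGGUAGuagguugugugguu
let-7c-5p: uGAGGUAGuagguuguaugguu
miR-192-5p: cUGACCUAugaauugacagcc
miR-5124a: gGUCCAGUgacuaagagcau
miR-200b-3p: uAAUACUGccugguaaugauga
miR-146a-5p: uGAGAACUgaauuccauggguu
miR-146b-5p: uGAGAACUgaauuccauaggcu
miR-423-5p: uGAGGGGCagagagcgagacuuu
No other miRNA in the RefSeq table had the miR-9-5p seed. The pairs miR-222-3p and miR-221-3p, miR-125a-5p and miR-125b-5p, and miR-146a-5p and miR-146b-5p each share 1, as do the let-7 miRNAs.

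miR-9-5p, a regulator of neural progenitors that NF-κB signalling can also induce in myeloid cells, was higher in NY. Its counts were 7, 9 and 1 in DZ replicates A, B and C and 215, 231 and 247 in the NY replicates. On the CPM scale DZ held 434, 520.3 and 38.5, and NY held 7241, 7283 and 8345. The lowest NY library lay far above the highest DZ library, and the NY libraries differed little among themselves. The fitted change was 24.4-fold (log2 fold change 4.61 ± 0.50 SE, edgeR quasi-likelihood adjusted p = 0.000129). By mean CPM over the 6 libraries it took rank 34 of the tested miRNAs. Against the same DZ libraries its log2 fold change was 6.76 in aFM and 8.45 in PLL, so it was lowest in DZ of the 4 groups. No other of the 132 passed, so 0.758% of the tested miRNAs were called higher and 0 were called lower by edgeR, against 9 higher (6.82%) and 10 lower (7.58%) at an unadjusted p under 0.05. The next smallest adjusted p was 0.246.

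DESeq2, run on the same miRNAs, called 6: miR-9-5p and miR-206-3p higher, and miR-192-5p, miR-122-5p, miR-5124a and miR-709 lower. edgeR without a filter on low counts called these 6 and miR-5110. The call of miR-9-5p was made under each of the 23 alternatives run, with log2 fold changes from 3.93 to 5.19. Its adjusted p was largest, 0.0398, when only NY and DZ libraries were fitted with the replicate letter as a block.

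In GRCm38.p6 the mature miR-9-5p sequence lies at 3 places: chr3:88215613-88215635 in an intron of the noncoding RNA gene Gm3764, chr13:83738821-83738843 in an exon of the noncoding RNA gene C130071C03Rik, and chr7:79505279-79505301 in an intron of Mir9-3hg. All are on the plus strand, as are these host genes, and the reads cannot be assigned to 1 of them. The opposite arm, miR-9-3p, had 0 counts in DZ and 2 in NY, both in replicate C. Of 5 listed miRNAs of nervous tissue only miR-9-5p and miR-128-3p could be tested. miR-128-3p was at 2849, 1849.9 and 2233 CPM in DZ and 3166, 2554 and 2906 in NY, which overlap (log2 fold change 0.32 ± 0.26, adjusted p = 0.789). miR-124-3p, the defining miRNA of neurons, had 0 counts in DZ and 2 in NY, and miR-219a-5p had none in either.

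**Figure D1:**
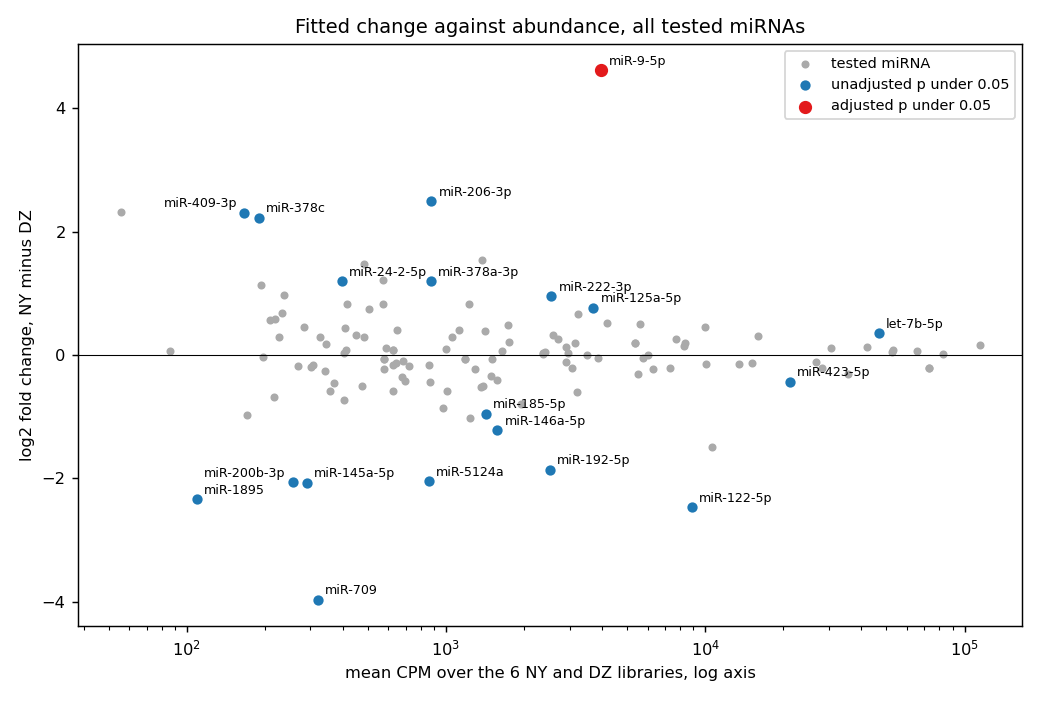
Log2 fold change of NY against DZ (vertical axis) against mean CPM over the 6 libraries (horizontal log axis) for the 132 tested miRNAs, grey; blue points have an unadjusted p under 0.05 and the red point an adjusted p under 0.05. miR-9-5p, at 4.61, is the only red point, and the most abundant miRNAs lie close to 0.

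The abundant miRNAs were nearly level between the groups. The 10 most abundant, with identical copies counted once, took 56.6% of annotated counts on average in DZ and 59.1% in NY, and their log2 fold changes ran from -0.31 to 0.35. miR-21a-5p, which is raised in many activated and proliferating cells, was at 88085, 119316 and 116218 CPM in DZ and 122118, 132229 and 107542 in NY. miR-143-3p, abundant in smooth muscle and stromal cells, was at 88456, 81914 and 76029 against 78808, 82572 and 87338 CPM. For both the ranges overlapped (log2 fold changes 0.16 ± 0.16 and 0.01 ± 0.17, adjusted p = 0.91 and 0.984). Of the 132 tested miRNAs 86 had a fitted log2 fold change within 0.5 of 0 and 21 lay beyond 1 in either direction. A p that misses the threshold does not show that a miRNA was equal.

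let-7b-5p had the smallest p of these 10. The let-7 miRNAs restrain proliferation and mark differentiated cells. It was at 45591, 39021 and 38418 CPM in DZ and 50989, 53598 and 52403 in NY, so the groups did not overlap, but the difference of 1.28-fold did not pass (log2 fold change 0.35 ± 0.15 SE, adjusted p = 0.286). A near neighbour, let-7c-5p, was at 66899.8, 62548 and 62748 against 63181, 72073 and 66559 CPM and overlapped. Of the 9 tested let-7 guide strands 0 were called, 5 had a positive and 4 a negative fitted change, and their median log2 fold change was 0.051, against 0.025 over all tested miRNAs. Together they held 226469 to 235222 CPM in DZ and 229957 to 248947 in NY.

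**Figure D2:**
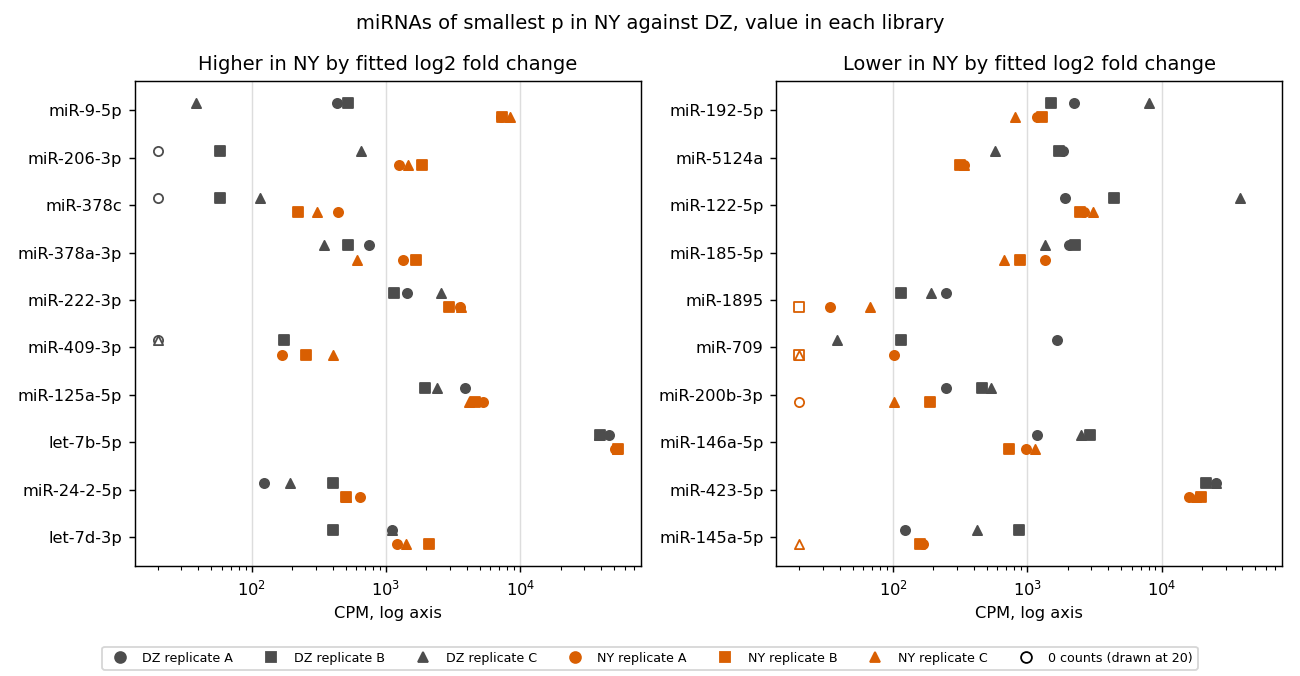
CPM in each library (horizontal log axis) for the 10 miRNAs of smallest p with a positive and the 10 with a negative log2 fold change; grey symbols are DZ, orange symbols NY, shapes are replicates, and open symbols are libraries with 0 counts, drawn at 20. miR-9-5p is the widest separated row; in rows such as miR-122-5p and miR-709 a single DZ library lies far from the rest.

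Among the 132 tested miRNAs 13 (9.85%) had every NY library above every DZ library and 8 (6.06%) every NY library below. With miR-9-5p, those above were miR-206-3p, miR-378c, miR-222-3p, miR-125a-5p, let-7b-5p, miR-24-2-5p, let-7d-3p, miR-3960, miR-411-5p, miR-24-3p, miR-100-5p and miR-99a-5p. Those below were miR-192-5p, miR-5124a, miR-185-5p, miR-1895, miR-200b-3p, miR-146a-5p, miR-423-5p and miR-145a-3p. Apart from miR-9-5p none of these passed the test, and for miR-185-5p the nearest DZ and NY libraries both stood at 1347 CPM when rounded.

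miRNAs of striated muscle were counted more often in NY. miR-206-3p, which is made in skeletal muscle and drives myogenic differentiation, was at 0, 57.8 and 654 CPM in DZ and 1246, 1860.2 and 1453 in NY. Every NY library was above every DZ library, and DZ replicate C held nearly all of the DZ counts, 17 of 18 against 139 in NY. The log2 fold change was 2.49 ± 0.81 (edgeR adjusted p = 0.246), and it was 5.43 and passed (adjusted p = 0.00452) without DZ replicate C. Mature miR-206-3p lies on chr1 at 20679055 to 20679076, plus strand, in an exon of the noncoding RNA gene Gm28653. The other members of the list were too thin to be tested. miR-1a-3p, a heart and skeletal muscle miRNA with the same seed as miR-206-3p, had 0, 2 and 4 counts in DZ and 8, 17 and 21 in NY, which is 5.01 times more per read (95% counting interval, 2.13 to 14.3). miR-133a-3p, made from the same transcripts as miR-1a-3p, had 0 counts in DZ and 9 in NY, in replicates A and B. That is at least 1.96-fold higher in NY when the 0 is set at 3 counts over the group. miR-133b-3p, the remaining member, had 0 counts in DZ and 4 in NY, all in replicate A. miR-499-5p, which lies in a myosin gene of heart and slow muscle, is not on the list. It was picked because every NY library and no DZ library held it, so it adds no separate support. Its counts were 0 in DZ and 3, 5 and 3 in NY, at least 2.39-fold higher. Summed over the muscle list of 4, DZ held 0, 173 and 808 CPM and NY 1819, 2522 and 2162. These intervals cover counting error only, with the libraries of a group pooled. In such pools, more vesicles or cells of a type and more of a miRNA in each cannot be told apart.

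The miR-378 family, whose best known member lies in an intron of the metabolic coactivator gene Ppargc1b, had 2 tested members, both with a positive log2 fold change. miR-378c was at 0, 57.8 and 115 CPM in DZ and 438, 221 and 304 in NY, with no overlap (log2 fold change 2.23 ± 0.74, adjusted p = 0.246). It passed the filter on low counts with 13 counts in NY replicate A and 17 and 11 in aFM replicates B and C. Its being tested thus depended on libraries where it was high, aFM included, and the shared sign of the 2 members is only a description. miR-378a-3p was at 743, 520.3 and 346 CPM in DZ and 1347, 1671 and 608 in NY, and only NY replicate C lay within the DZ range (1.19 ± 0.46, adjusted p = 0.246). miR-378d had 3 counts in DZ and 15 in NY, 3.26 times more per read (0.923 to 17.6). These miRNAs are so alike in sequence that reads may be split among them. Against the same DZ libraries miR-378c and miR-378a-3p had log2 fold changes of 2.58 and 1.45 in aFM (adjusted p = 0.0415 and 0.0471) and 1.87 and 0.43 in PLL (adjusted p = 0.134 and 0.547). The log2 fold changes of miR-206-3p there were -0.06 in aFM (adjusted p = 0.99) and -0.66 in PLL (adjusted p = 0.593).

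Of the liver and gut list of 4 miRNAs 2 were tested and 0 called, and DZ replicate C stood apart with 47196 CPM in sum, against 4522 and 5954 in the other DZ libraries and 3815 to 3974 in NY. miR-192-5p, made in gut, liver and kidney and induced by p53, was at 2230.0, 1503 and 8084 CPM in DZ and 1179, 1293 and 811 in NY. The NY libraries lay below all DZ libraries, with a log2 fold change of -1.86 ± 0.56 (adjusted p = 0.246) that was -0.83 without DZ replicate C. miR-122-5p, the dominant hepatocyte miRNA, was at 1920.3, 4393 and 38726 CPM in DZ and 2627, 2459 and 3108 in NY. DZ replicate C alone was high, and the NY libraries lay between the other DZ libraries. The log2 fold change was -2.46 ± 0.82 (adjusted p = 0.246), -0.27 without DZ replicate C (adjusted p = 0.918) and -3.04 without DZ replicate A, where it passed (adjusted p = 0.0332). miR-194-5p, transcribed with miR-192-5p, had 2, 1 and 10 counts in DZ and 5, 2 and 1 in NY, so its excess in DZ was in replicate C too. Mature miR-192-5p lies at chr19:6264857-6264877, plus strand, outside any other GENCODE gene.

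Epithelial miRNAs were thin in both groups. The miR-200 miRNAs repress the ZEB factors and hold cells in an epithelial state. miR-200b-3p was at 248, 462 and 539 CPM in DZ and 0, 189 and 101 in NY, with no overlap (log2 fold change -2.06 ± 0.80, adjusted p = 0.246). miR-200a-3p, from the same hairpin cluster, had 5, 11 and 10 counts in DZ and 4, 2 and 1 in NY, 5.69 times more per read in DZ (95% counting interval 2.40 to 15.5). miR-200c-3p, from the other cluster of the family, went the opposite way, with 0, 0 and 1 counts in DZ and 12, 1 and 4 in NY, most of them in replicate A. miR-141-3p, its neighbour, had none. The whole list of 8 summed to 867 to 2255 CPM in DZ and 568 to 842 in NY.

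Inflammation-linked miRNAs did not move as a group. Of 9 listed, 6 were tested, miR-9-5p was called higher and 0 were called lower, and the median log2 fold change was 0.21. miR-146a-5p, induced by NF-κB and acting as a brake on it, was at 1177, 2948 and 2502 CPM in DZ and 977, 725 and 1149 in NY. All NY libraries lay below DZ, the nearest pair by little, and the change of 2.33-fold did not pass (log2 fold change -1.22 ± 0.48, adjusted p = 0.247). miR-146b-5p, which differs from it in the last bases only and shares its seed, was at 309.7, 1098 and 885 against 404, 725 and 912 CPM and overlapped (-0.18 ± 0.51, adjusted p = 0.984). miR-155-5p, raised in activated macrophages and lymphocytes, had 3 counts in DZ and 13 in NY, 2.83 times more per read (0.777 to 15.5). miR-222-3p, a cell cycle and inflammation miRNA, was at 1425, 1156 and 2579 CPM in DZ and 3569.9, 2964 and 3615 in NY without overlap (0.96 ± 0.37, adjusted p = 0.246). Its cluster partner miR-221-3p, on the X chromosome beside it, was at 2911, 1849.9 and 2618 against 2964, 3089.8 and 2804 CPM, with overlapping ranges (0.26 ± 0.25, adjusted p = 0.885). Whether the members of these pairs differ from each other was not tested.

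miRNAs that act on bone formation had list medians near that of all tested miRNAs, with single members farther off. Of 10 described as promoting osteogenesis 5 were tested and 0 called, with a median log2 fold change of 0.077. miR-3960, which promotes osteoblast differentiation, had 14 counts in DZ and 64 in NY, at 434, 289 and 77.0 CPM in DZ and 639.9, 788 and 676 in NY. These did not overlap, and the log2 fold change of 1.47 ± 0.75 did not pass (adjusted p = 0.447). Against the same DZ libraries it was 4.15 in aFM (adjusted p = 0.0047) and -0.66 in PLL (adjusted p = 0.581). miR-3960 is also among the late-registered entries described below, many of which have little evidence of miRNA processing. miR-2861, on the same list, had no count in the 6 libraries. miR-26a-5p, another of this list, was at 36733, 43414 and 40497 against 41963, 45527 and 44699.5 CPM (0.13 ± 0.28, adjusted p = 0.984), and miR-29a-3p, a regulator of collagens, had a change of 0.02 ± 0.32 (adjusted p = 0.984). Of 16 described as restraining osteogenesis 10 were tested and 0 called, with a median of 0.14. Its member of smallest p was miR-206-3p, given above at 2.49, which was called without DZ replicate C. miR-24-3p, which represses osteoblast genes, was at 4026, 2948 and 3349 CPM in DZ and 5557, 4761 and 4459.8 in NY without overlap (0.52 ± 0.33, adjusted p = 0.6). The opposite arm of 1 of its hairpins, miR-24-2-5p, had 14 counts in DZ and 50 in NY (1.19 ± 0.53, adjusted p = 0.334). miR-30a-5p had 231 counts in each group, at 2911, 4740.3 and 3927 CPM in DZ and 3166, 2018 and 2466 in NY, which overlap (-0.60 ± 0.32, adjusted p = 0.467).

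**Figure D3:**
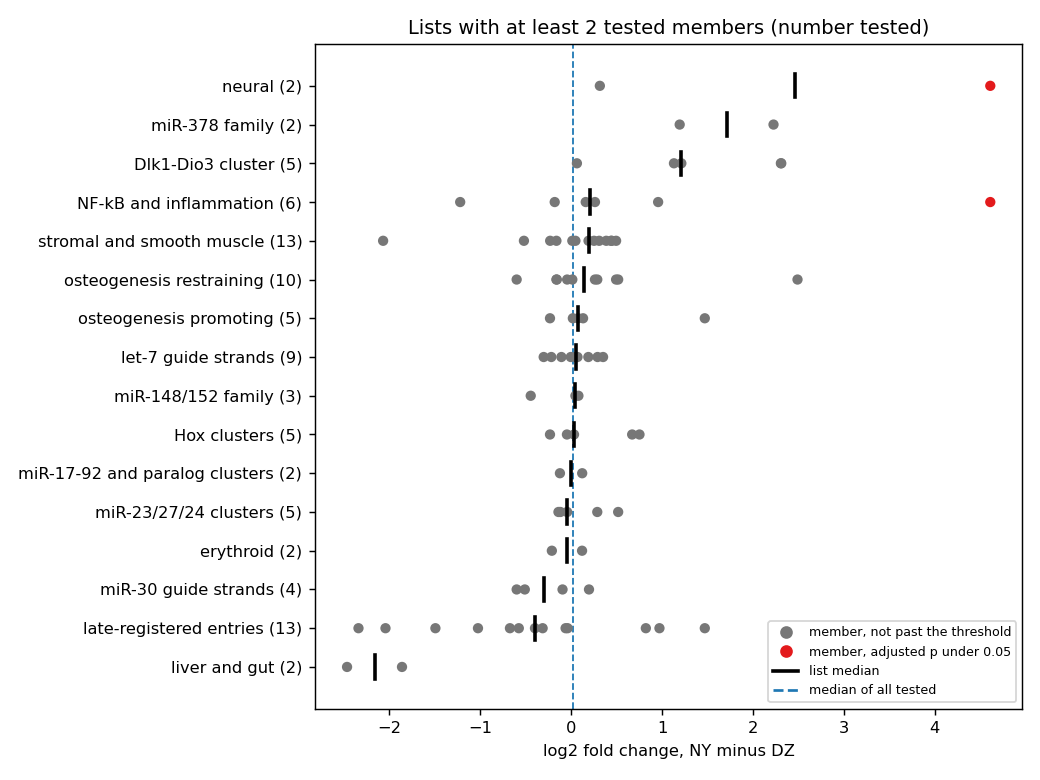
Log2 fold change of NY against DZ (horizontal axis) of each tested member, 1 row per list with at least 2 tested members, black bars marking list medians and the dashed line the median of all tested miRNAs (0.025). The red point, miR-9-5p, appears in both lists that hold it, and most other lists have medians near the dashed line.

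Stromal miRNAs were found in both groups at similar levels. All 16 listed stromal and smooth muscle miRNAs had counts, and they summed to 122762 to 147303 CPM in DZ and 141152 to 148694 in NY. Of 13 tested, 0 were called and the median log2 fold change was 0.19. miR-100-5p, which targets mTOR, was at 8672, 8556 and 8161 CPM in DZ and 11821, 10247 and 12535 in NY without overlap, yet its log2 fold change of 0.45 ± 0.52 did not pass (adjusted p = 0.91). The fit also takes in the PLL libraries, where miR-100-5p was at 38834 CPM in replicate A and 7017 and 8146 in B and C. miR-99a-5p, of the same family and seed, was at 16106, 13701 and 12934 against 17209.7, 17183 and 18549 CPM (0.31 ± 0.55, adjusted p = 0.984). miR-125a-5p, which shares its seed with the osteoblast-restraining miR-125b-5p, was at 3902, 1965 and 2387 CPM in DZ and 5254, 4603 and 4122 in NY (0.76 ± 0.31, adjusted p = 0.247). miR-125b-5p was at 6752, 3699.7 and 3503 against 8184, 5454 and 5980.2 CPM, which overlap between groups although each NY library was above the DZ library of its letter (0.50 ± 0.41, adjusted p = 0.801). miR-145a-5p, a smooth muscle miRNA, had 28 counts in DZ and 10 in NY, with 124, 867 and 423 CPM against 168, 158 and 0, so DZ replicate A lay among the NY libraries (-2.07 ± 0.95, adjusted p = 0.345). The more abundant opposite arm, miR-145a-3p, was at 1734, 1792 and 1309 against 909, 1198 and 1250.1 CPM (-0.52 ± 0.35, adjusted p = 0.649).

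Red cell miRNAs made up much of the blood markers counted. The erythroid miRNAs summed to 139313, 121224 and 62324 CPM in DZ and 102214, 131693 and 64498 in NY, and replicate C was the lowest in both groups. miR-486a-5p, identical in its counts to miR-486b-5p, was at 104810.0, 86308 and 43769 against 60823, 94522 and 47436 CPM (-0.21 ± 0.32, adjusted p = 0.984). miR-451a, which is processed by Ago2 in red cell precursors, was at 34503, 34858 and 18555 against 41357, 37140.2 and 17028 CPM (0.12 ± 0.48, adjusted p = 0.984). Of the leukocyte markers miR-142a-5p was at 3593, 3237 and 3041 CPM in DZ and 3334, 3089.8 and 2095 in NY (-0.21 ± 0.27, adjusted p = 0.95). Its opposite arm miR-142a-3p had 0 counts in all 6 libraries, and miR-223-3p, a granulocyte miRNA, had 6 in DZ and 7 in NY. The endothelial miR-126a-3p was at 619, 1445 and 346 against 370.5, 504 and 878 CPM (-0.43 ± 0.48, adjusted p = 0.91), where aFM had a log2 fold change of 2.63 against the same DZ libraries (adjusted p = 0.0047). miR-16-5p, usually among the most abundant miRNAs of blood cells, had 10 counts in DZ and 16 in NY. No listed guide strand of its family was abundant enough to be tested. The opposite arm of 1 of its hairpins, miR-16-2-3p, was counted more often, with 135 counts in DZ and 129 in NY (-0.79 ± 0.41, adjusted p = 0.447). The miRNA caller is not given in the sources used here, so whether the counting lost reads of miR-16-5p or miR-142a-3p is not known, and a low count of either is not read as a low level.

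All 5 tested miRNAs of the imprinted Dlk1-Dio3 cluster, a maternally expressed set on chromosome 12 that is active in stem and progenitor cells, had a positive log2 fold change, with a median of 1.21. These were 5 of 36 listed, of which 18 had a count in the 6 libraries. Over all tested miRNAs, copies once, 67 of 127 were positive. None of the 5 was called. The filter on low counts drew on all 12 libraries, and miR-411-5p and miR-381-3p passed it on their counts in aFM. These were 30, 30 and 18 for miR-411-5p and 13, 19 and 27 for miR-381-3p, against at most 3 in any NY or DZ library. miR-409-3p reached the filter in aFM, at 29, 37 and 31 counts, but among the NY and DZ libraries only in NY replicate C, with 12. For miR-379-5p the 14 and 28 counts in aFM replicates B and C were needed besides 11 in NY replicate C. Only miR-127-3p passed on its NY counts, which were 36, 16 and 21. The tested members were thus mostly chosen through another group, and the share that was positive is only a description. miR-409-3p was at 0, 173 and 0 CPM in DZ and 168, 252 and 405 in NY, with DZ replicate B just above NY replicate A (2.31 ± 0.89, adjusted p = 0.246). Without DZ replicate B its log2 fold change was 6.07, with adjusted p = 0.0478, against the 2 DZ libraries that hold none. Its counts were 3 in DZ and 25 in NY, or 5.44 times more per read (1.66 to 28.2). miR-411-5p had 1 count in DZ and 9 in NY, 3 in each NY library (ratio 5.88, interval 0.814 to 258). miR-127-3p was at 372, 0 and 616 CPM in DZ and 1212, 504 and 709.5 in NY (1.21 ± 0.75, adjusted p = 0.582), miR-379-5p had a change of 1.13 ± 0.78 (adjusted p = 0.649) and miR-381-3p of 0.06 ± 1.09 (adjusted p = 0.984). Mature miR-409-3p lies at chr12:109743204-109743225, plus strand, in an intron of the noncoding RNA gene Mirg. The cluster summed to 929, 1329.6 and 1270.3 CPM in DZ and 2627, 1671 and 2703 in NY, which do not overlap. The median was 0.83 without DZ replicate B and 1.84 without DZ replicate A, and 4 of the 5 were positive without DZ replicate A, NY replicate A or NY replicate C. Among members too thin to test, miR-434-5p had 4 counts in DZ and 19 in NY and miR-541-5p 5 in each group. miR-487b-3p and miR-495-3p went the opposite way, with 5 and 3 counts in DZ replicate B and 0 elsewhere in the 6. In aFM, against the same DZ libraries, miR-409-3p, miR-411-5p, miR-127-3p and miR-381-3p had log2 fold changes of 4.40, 5.56, 2.57 and 3.00.

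Entries registered late in the miRNA numbering, from 1800 upwards, many of which have little evidence of miRNA processing, set DZ replicate A apart. The 13 tested summed to 124632 CPM there, 32373 and 33068 in DZ replicates B and C, and 49272, 30267 and 51186 in NY. miR-5119, in an intron of Cdk12, was at 75076, 25436 and 17669 CPM in DZ and 34756, 21345 and 38956 in NY, and miR-5110 at 33636, 1041 and 12165 against 6365, 3941 and 6318. Of the 13, 0 were called, 3 had a positive and 10 a negative log2 fold change, and the median was -0.40. Without DZ replicate A the median was 0.54 and 8 of the 13 were positive. miR-5124a, in an intron of Gcnt2, did not follow DZ replicate A alone: it was at 1858, 1734 and 577 CPM in DZ and 337, 315 and 338 in NY (-2.04 ± 0.64, adjusted p = 0.246). miR-1895 had 11 counts in DZ and 3 in NY, 5.62 times more per read in DZ (1.48 to 31.4), and none in NY replicate B. miR-709, numbered below this range, was at 1672, 116 and 38.5 CPM in DZ and 101, 0 and 0 in NY (-3.96 ± 1.48, adjusted p = 0.246), so its difference lay mostly in DZ replicate A.

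**Figure D4:**
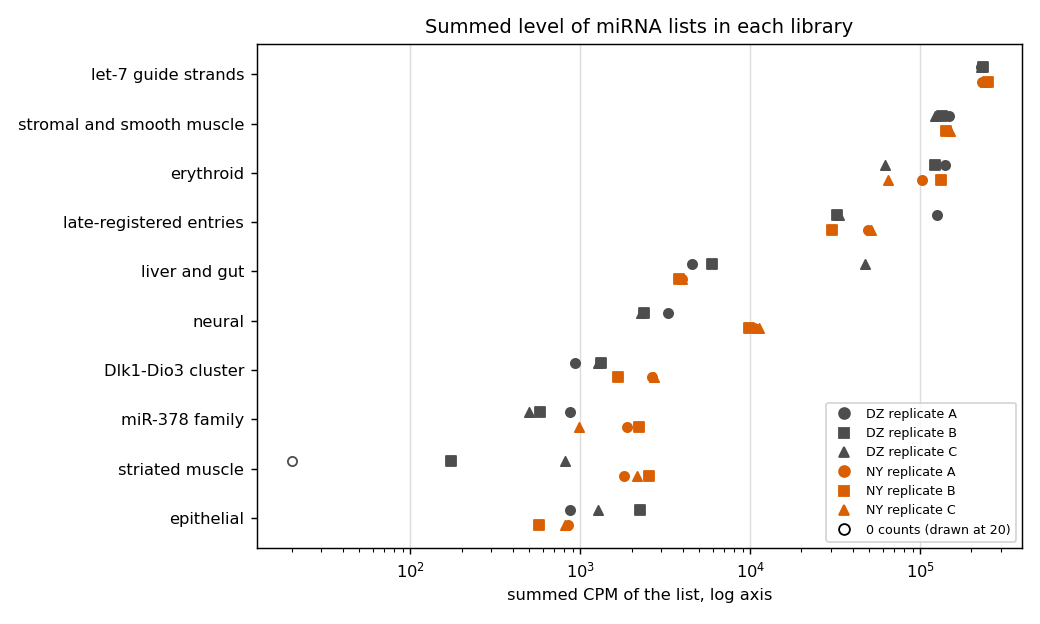
Summed CPM of each list (horizontal log axis) in every library, DZ in grey and NY in orange with shapes for replicates; the open symbol is a library with 0 counts, drawn at 20. DZ replicate A is apart for the late-registered entries (124632) and DZ replicate C for the liver and gut list (47196), while the NY symbols of the striated muscle and neural lists lie to the right of DZ; the neural sum is mostly miR-9-5p in NY.

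The NY libraries resembled each other more than the DZ libraries did. Over the 132 miRNAs Pearson's r of log2 CPM was 0.926 to 0.936 between NY libraries, 0.850 to 0.878 between DZ libraries and 0.842 to 0.891 between the groups, as a description across miRNAs, which are not independent. Among 70 miRNAs with a mean of at least 1000 CPM, copies once, the median coefficient of variation was 23.3% in DZ and 16.2% in NY, and it was larger in DZ for 50. A library exceeded both others of its group by more than 2 times for 6 of the 70 in DZ replicate A, 3 each in DZ replicates B and C, and 0 in each NY library. DZ libraries held fewer annotated counts, 17607 to 24758 against 28257 to 35114. The part of depth in this spread was not tested. miR-7a-5p is an example from DZ replicate B, at 248, 3989 and 769.9 CPM in DZ and 1414, 1545 and 979.8 in NY.

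The share of a library on annotated miRNAs was 10.3%, 20.5% and 21.6% in DZ and 21.7%, 30.6% and 18.6% in NY, which overlap. Its mean was 17.5% ± 6.23 in DZ and 23.7% ± 6.23 in NY (SD, n = 3, two-sided exact permutation p = 0.4). Thinned to 17607 annotated reads, the smallest total of the series, libraries held 221 ± 8.19 miRNAs in DZ and 228 ± 2.90 in NY (SD, n = 3, two-sided exact permutation p = 0.2). With 3 against 3 the smallest p such a test can give is 0.1, so neither could have passed.

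Relatives by seed and partners by hairpin were compared as a description. Seeds were read only for the tested miRNAs with a RefSeq sequence. The miR-99/100 seed ACCCGUA had 3 of 3 members positive, with log2 fold changes from 0.14 to 0.45, and together 28210.5 to 34317 CPM in DZ and 36194 to 39192 in NY. Of 4 tested miR-30 guide strands 3 had a negative and 1, miR-30d-5p, a positive log2 fold change, with a median of -0.30. The miR-221/222 seed GCUACAU summed to 4336, 3006 and 5197 CPM in DZ and 6534, 6053 and 6419 in NY, which do not overlap. Apart from this seed and ACCCGUA, the sums of all seeds shared by tested miRNAs overlapped between the groups. These included CCCUGAG of miR-125a-5p and miR-125b-5p and GAGAACU of miR-146a-5p and miR-146b-5p. Of 10 hairpins with both arms tested, 7 had log2 fold changes of the same sign in both arms, with Mir199a-1 and Mir199a-2 measured by the same pair. The arms of let-7d, let-7a-1 and miR-423 had log2 fold changes of opposite sign. let-7d-3p was at 1115, 405 and 1116 CPM in DZ and 1212, 2081 and 1419 in NY (0.83 ± 0.41, adjusted p = 0.434), while let-7d-5p was at 6380.3, 6648 and 5158 against 5523, 4319 and 4899 (-0.30 ± 0.21, adjusted p = 0.681). miR-423-5p, a miRNA common in serum, was at 25645, 21620.3 and 25599.5 CPM in DZ and 16031, 19799.7 and 18143 in NY without overlap (-0.43 ± 0.18, adjusted p = 0.255). Its other arm, miR-423-3p, was at 3159, 2601 and 2964 against 2795, 3563 and 2602 CPM (0.04 ± 0.27, adjusted p = 0.984). miR-185-5p was at 2044, 2255 and 1347 CPM in DZ and 1347, 883 and 676 in NY (-0.95 ± 0.34, adjusted p = 0.246).

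Of the 406 annotated entries with a count in these 6 libraries, 4 were present in every library of one group and in none of the other, all in NY. miR-450a-5p, an X-linked miRNA, had 4, 1 and 9 counts in NY, at least 3.05-fold higher than DZ when its 0 is set at 3 counts over the group. The next was miR-499-5p, described above with the muscle miRNAs. miR-144-5p and miR-3470b had 1 count in each NY library, which is no more than a count of 0 allows. The NY libraries held more annotated counts than the DZ libraries, and the part of depth in these detections was not tested.

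**Figure D5:**
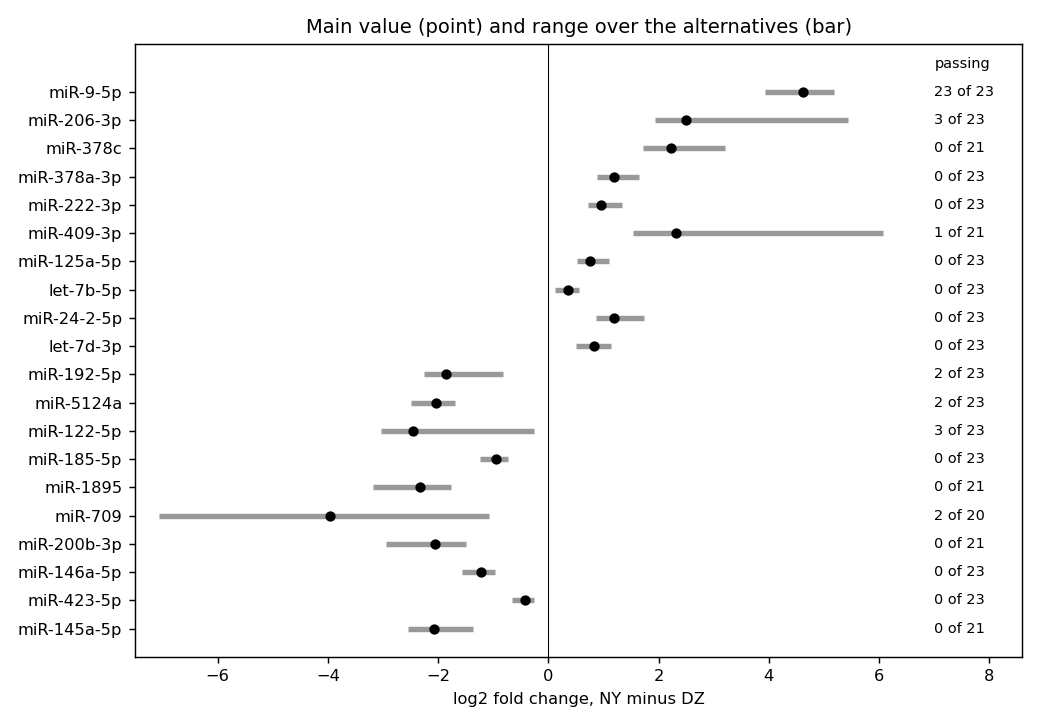
Log2 fold change of NY against DZ (horizontal axis) for the 10 miRNAs of smallest p in each direction: points are the values reported, bars the lowest and highest over the alternatives in which a miRNA was fitted, and the column at right counts the alternatives in which the adjusted p passed. miR-9-5p passed in 23 of 23, miR-206-3p and miR-122-5p in 3 and miR-409-3p in 1, and no bar crosses 0.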

How the data were processed

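The authors deposited 1 table of raw counts per row for 12 libraries, whole numbers with no normalization, judging by the values. FastQC, STAR, StringTie, DESeq2 and the build mm39 are listed without roles or versions, per the submitters' processing notes; the miRNA caller is not given in the sources used here. Of 3509 rows, 1978 with mouse miRNA names were used and 1531 predicted loci, which name no gene and held 69.4% to 89.7% of counts in the NY and DZ libraries, entered neither the library sizes nor the tests. All 12 libraries entered 1 edgeR 4.0.16 quasi-likelihood fit (limma 3.58.1, R 4.3.3) with a term per group, after filterByExpr (minimum count 10, minimum total 15) and TMM scaling; the tested miRNAs held at least 98.0% of annotated counts. The two-sided p-values were adjusted by Benjamini-Hochberg over all 132, with a threshold of 0.05. The SE given is the absolute log2 fold change over the root of its F statistic. DESeq2 1.42.0 was an alternative; it left 1 miRNA without an adjusted p. The common biological coefficient of variation was 40.4%. The fit was also run on simulated data drawn with a common spread for all miRNAs. That setting holds no miRNA with a single high library by design, so the run does not vouch for such miRNAs here.

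Of the 6 pairs of libraries within NY and DZ, each differed by more than sampling noise in a chi-square test. Rows with identical counts in all libraries and at least 10 counts, such as both miR-486 guide strands, are 1 measurement and were counted once in lists. The replicate letters are shared by the groups, but no label states a pairing. The deviations of same-letter libraries from their group means correlated at 0.19, 0.32 and 0.16 for A, B and C, against -0.20 to 0.01 for other letters. The deviations within a group sum to 0 by construction, which ties these values to each other, so they do not establish a pairing. Whether groups overlap was read over all libraries, without regard to letters; miR-128-3p and miR-378a-3p, like miR-125b-5p, overlap although each NY library is above the DZ library of its letter. Coordinates and annotation are from RefSeq and GENCODE vM21 on GRCm38, not the authors' build.

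miRNAs named are those past the threshold, the 10 of smallest p in each direction, the 10 most abundant, the tested member of smallest p in each list and those present in only 1 group; others were picked as list, seed or hairpin partners or after their values were seen. The members and lists were chosen with earlier results of these data known. Lists are described by counts and medians without a test.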

Additional observations from a re-analysis of the deposited data

Results flagged for a closer look

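The predicted loci, which entered no comparison above, held 629188 counts in the NY and DZ libraries together, more than the annotated miRNAs did. In a fit over all rows 712 of them were tested, of which 54 were called higher and 68 lower in NY than in DZ (edgeR quasi-likelihood, adjusted over 853 rows). These rows carry a chromosome and a number and name no gene, and no further use was made of them.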

How the results depend on the processing

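The count of 1 call held with RLE factors, upper quartile factors, library totals, a filter of 5 counts in 3 libraries, NY and DZ libraries only, all rows in the fit (where the median annotated miRNA stood at a log2 fold change of 0.21), identical rows merged, and the replicate block, with which it was 1 over all 12 libraries and 1 over NY and DZ only; miR-9-5p was called in each. It was 6 with DESeq2 and 7 without a filter. Leaving out single libraries gave 1 to 2: 2 without DZ replicate A, B or C, adding miR-122-5p, miR-409-3p and miR-206-3p in turn, and 1 without any other. The filter then keeps more miRNAs, since the smallest group has fewer libraries. miRNAs with an unadjusted p under 0.05 numbered 19, and 10 with NY and DZ libraries only, 8 with the replicate block added to that, 16 with the block over 12, 12 with all rows and 34 without a filter. They split into 9 higher and 10 lower in NY, but 4 and 14 with upper quartile factors, which put the median miRNA at -0.22, and 8 and 4 with all rows. Leaving out single libraries gave 10 to 25. The replicate block changed no call. The differences in annotated share and in detected miRNAs stayed positive under each alternative run. None of the 10 miRNAs of smallest p in each direction changed sign where it was fitted, but miR-378c, miR-409-3p, miR-1895, miR-200b-3p and miR-145a-5p were fitted in 21 of the 23 alternatives and miR-709 in 20, not with NY and DZ libraries only; among abundant ones near 0, such as miR-143-3p, the sign changed with the setting. Depth limits the thin miRNAs most, since 1 count is worth up to 61.9 CPM.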
